A study of Mus musculus with 4 samples.

Results

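Isl1 regions inside shorter genes are sites that both replicates of an Isl1 ChIP-seq experiment placed in the body of a protein-coding gene under 300 kb long, away from the gene's ends. A region was kept where peaks of the replicates overlapped by at least 1 bp and where the midpoint of their longest overlap lay inside a RefSeq protein-coding gene, over 1 kb from every protein-coding gene end. By this rule 1504 of 6834 shared regions (22.0%) were members. They lay in 1049 of 21327 protein-coding genes under 300 kb, which is 4.92% of those genes. Members were thus chosen by the presence of a peak in both lists and by position alone, so these counts are a description.

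The chromatin came from wildtype CD1 mouse embryos at E14.5 (embryonic days), from the genital tubercle, which grows out to become the penis in males and the clitoris in females. There were 2 Isl1 ChIP samples, precipitated with a rabbit monoclonal antibody against ISL1, and 2 samples of input DNA from the same tissue, genotype and age. Each ChIP sample had 1 peak list, and the input samples were not analysed here. The labels give neither the number nor the sex of the embryos and do not say whether the replicates came from separate embryos, so agreement between the replicates may be technical.

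Isl1 is a LIM-homeodomain transcription factor. Its homeodomain reads short sites built around a TAAT core, and its LIM domains bind cofactors and other LIM proteins. In the embryo it is known for its roles in motor neurons, the second heart field, the pancreas and the hindlimb bud, and it is present in the mesenchyme of the genital tubercle. Sites of such factors inside a gene can be enhancers of that gene or of a neighbour, or promoters of shorter transcripts that start within the gene. A peak list does not tell these apart, and it measures no expression.

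The members with the highest scores included many at a transcription start that RefSeq places inside the gene, downstream of the gene's outermost end. Sequences are shown here for 7 of these, from the RefSeq promoter table of build GRCm38.p6, whose coordinates are those of mm10. Each is the part of the 250 bases upstream of the start that the peaks of both replicates covered, written 5′ to 3′ on the strand of the gene. Capitals mark the word GGGCGG on either strand, the GC box read by Sp and Klf factors. Rpl22 and Rbpj hold no such match and are shown because their scores were among the highest at starts, while Phldb2 and Amotl1 stand for members of lower score. The stretches of Septin11, Rbms2 and Sash1, shown further below, hold no match either. So these 7 do not show how common the word is at starts, and its share is given further below.
Rpl22: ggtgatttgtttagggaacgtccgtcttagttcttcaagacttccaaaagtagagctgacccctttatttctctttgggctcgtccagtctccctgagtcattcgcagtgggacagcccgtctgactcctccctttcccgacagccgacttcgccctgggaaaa
Rbpj: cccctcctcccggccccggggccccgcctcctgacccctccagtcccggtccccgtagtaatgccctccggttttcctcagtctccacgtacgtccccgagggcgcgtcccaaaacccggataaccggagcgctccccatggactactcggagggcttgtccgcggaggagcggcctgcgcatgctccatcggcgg
Hyal2: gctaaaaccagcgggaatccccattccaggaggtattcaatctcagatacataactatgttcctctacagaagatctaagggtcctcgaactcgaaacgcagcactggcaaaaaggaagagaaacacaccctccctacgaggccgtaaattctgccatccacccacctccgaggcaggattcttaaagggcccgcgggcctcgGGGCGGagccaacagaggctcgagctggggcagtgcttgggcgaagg
Por: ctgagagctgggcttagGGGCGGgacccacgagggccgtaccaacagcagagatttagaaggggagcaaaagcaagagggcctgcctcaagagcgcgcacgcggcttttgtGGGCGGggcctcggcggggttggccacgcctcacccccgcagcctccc
Sgms1: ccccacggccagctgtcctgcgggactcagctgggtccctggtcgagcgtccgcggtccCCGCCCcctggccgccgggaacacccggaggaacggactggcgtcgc
Phldb2: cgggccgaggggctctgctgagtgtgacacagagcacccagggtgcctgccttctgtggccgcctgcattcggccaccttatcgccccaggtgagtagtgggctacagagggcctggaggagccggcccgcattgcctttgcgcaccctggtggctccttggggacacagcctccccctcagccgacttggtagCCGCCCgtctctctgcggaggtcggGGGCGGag
Amotl1: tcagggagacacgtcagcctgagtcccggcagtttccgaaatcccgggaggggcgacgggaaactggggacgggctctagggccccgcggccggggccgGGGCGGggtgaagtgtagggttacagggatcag
These stretches lie at chr4:152325562-152325725 (plus strand), chr5:53590290-53590485 (plus), chr9:107568913-107569162 (plus), chr5:135688986-135689144 (plus), chr19:32388513-32388618 (minus), chr16:45844402-45844628 (minus) and chr9:14615001-14615132 (minus).

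Few members at starts held a homeodomain word. The next 3 sequences are shown because their regions had scores of at least 921 in both replicates and because they do hold such a word. On either strand, capitals mark TAATTA (the palindromic homeodomain word), TAATGG (a related word with the same core), CTAATG (which can overlap the word before it by all but its first base) and TAATCC (the word of Pitx and Otx factors).
Septin11: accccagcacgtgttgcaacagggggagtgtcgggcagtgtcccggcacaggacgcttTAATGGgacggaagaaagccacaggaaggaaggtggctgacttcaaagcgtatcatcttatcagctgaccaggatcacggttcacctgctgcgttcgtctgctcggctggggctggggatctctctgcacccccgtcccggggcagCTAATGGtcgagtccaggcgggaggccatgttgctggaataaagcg
Rbms2: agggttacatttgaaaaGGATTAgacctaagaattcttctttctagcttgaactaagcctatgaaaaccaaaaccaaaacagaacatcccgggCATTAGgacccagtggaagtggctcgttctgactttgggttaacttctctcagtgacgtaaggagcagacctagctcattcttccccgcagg
Sash1: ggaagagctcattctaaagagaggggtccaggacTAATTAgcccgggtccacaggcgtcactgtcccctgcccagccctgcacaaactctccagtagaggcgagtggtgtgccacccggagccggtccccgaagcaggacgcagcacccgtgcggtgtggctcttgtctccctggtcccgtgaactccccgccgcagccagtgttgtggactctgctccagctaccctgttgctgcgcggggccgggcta
They lie at chr5:93093166-93093415 (plus strand), chr10:128176615-128176799 (minus) and chr10:8886071-8886320 (minus).

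Over the 90 RefSeq start windows that held the centre of a member, base composition was close to that of windows at gene ends with a region. A window here is the 300 bases from 250 before to 50 after a start, and the 90 windows belong to 81 members. Their median GC content was 62.0%, against 60.7% in 625 windows at gene ends with a shared region, 52.7% in 5748 windows inside shorter genes without a region and 52.7% in all 32817 windows. The median number of CpG dinucleotides was 21, 22, 6 and 7 in the same order.

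The GC box GGGCGG, searched on both strands, was in 47 of the 90 windows (52.2%, Wilson 95% interval 42.0 to 62.2%). Some of these windows overlap, where a member has several starts close together, and the intervals take no account of this. It was in 61.1% of the windows at gene ends with a region, 29.9% of those inside shorter genes without a region and 35.6% of all windows. Any of the 4 homeodomain words was in 12 windows (13.3%), against 14.9%, 22.3% and 22.5% in the same order. TAATTA alone was in 3 windows (3.33%) and in 5.30% of all windows. Counts for the following words were small. The Ets word CCGGAAGT was in 2 of the members' windows (2.22%, 0.612 to 7.74%), against 10.2% at gene ends with a region and 3.89% of all windows. AAGATGGC, the word of Yy1, was in 5 (5.56%, 2.40 to 12.4%), against 6.08% at gene ends with a region and 2.74% of all. AGAACA, the word of steroid receptors, was in 6 of the members' windows (6.67%, 3.09 to 13.8%), 11.7% of those at gene ends with a region and 19.0% of all. AGATAA, which Gata factors read, was in 1 of the members' windows (1.11%, 0.196 to 6.03%) and in 4.96% and 11.2% of the others in the same order. TTCAAAG, the word of Tcf and Lef factors, was in 5 (5.56%, 2.40 to 12.4%), 4.64% and 5.14%. The words AGGTGTGA (T-box), GACCACCCA (Gli) and ACAATGG (Sox) were in none of the 90, where a count of 0 of 90 allows a share of up to 3.33%, in 0.16%, 0.16% and 0.96% of those at gene ends with a region, and in 1.27%, 0.253% and 3.67% of all windows. GC content differed between these sets of windows, and its part in the motif shares was not tested. The windows cover only members at starts, so they say nothing of the sequence of the other members.

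Median scores of the members were close to those of other Isl1 regions away from gene ends. The score is the authors' own value for each peak, and its formula is not given in the sources used here. In replicate 1 the members' scores ranged from 20 to 1510 with a median of 102, and in replicate 2 from 22 to 1638 with a median of 121. The medians were 96 and 118 for 1016 regions inside genes of 300 kb or more, and 95 and 118 for 1617 regions outside genes within 100 kb. For 930 regions within 1 kb of a gene end they were 253 and 238.5. No test was made between these classes, because regions are not replicates. The median width of a member was 248 bp (quartiles 186 and 334 bp).

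The replicates ranked the members in a broadly similar order, with large differences in score at a part of them. Across the 1504 members the Spearman correlation of the scores was 0.691, and 118 of the 150 members with the highest scores in replicate 1 were among the 150 highest in replicate 2. The same correlation was 0.647 inside longer genes and 0.882 at gene ends, over regions that share the same pair of libraries. In 237 members the replicate 2 score was at least 2 times that of replicate 1, and in 85 the reverse held. Of 2014 replicate 1 peaks that met the location rule, 1528 (75.9%) overlapped a replicate 2 peak, and of 2295 replicate 2 peaks 1527 (66.5%) overlapped a replicate 1 peak. In replicate 1, overlapped peaks had a median score of 102 and the others of 60. In replicate 2 these medians were 120 and 66.

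**Figure D1:**
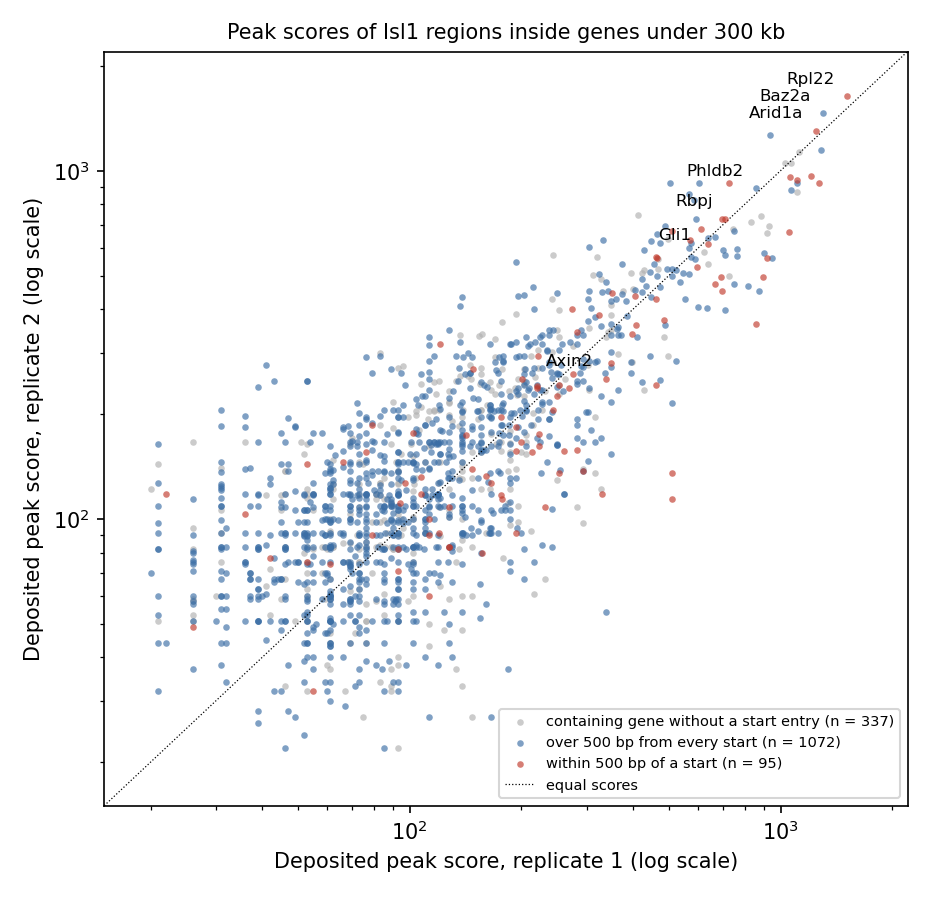
Deposited peak score of each of the 1504 members in replicate 1 (x axis) and replicate 2 (y axis), both on log scales, with the dotted line at equal scores and colours for members within 500 bp of a RefSeq start (95), farther from every start (1072) or in a gene without a start entry (337). Named points are the highest member of each gene, and Rpl22, Baz2a and Arid1a stand at the upper right with scores of at least 1248 in both replicates.

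Longer genes had higher shares with a member, and also more members per Mb. A member lay in 21 of 7924 genes under 10 kb (0.265%), in 130 of 6454 genes of 10 to 30 kb (2.01%) and in 367 of 5077 genes of 30 to 100 kb (7.23%). It lay in 350 of 1439 genes of 100 to 200 kb (24.3%) and in 181 of 433 genes of 200 to 300 kb (41.8%). Density was counted over gene sequence more than 1 kb from every gene end, where the rule allows a member, by the length of the longest containing gene. It was 1.19 members per Mb under 10 kb, 1.31 at 10 to 30 kb, 1.77 at 30 to 100 kb, 2.94 at 100 to 200 kb and 3.21 at 200 to 300 kb. Over all shorter genes it was 2.23 per Mb on the same base, against 3.23 per Mb for shared regions in genes of 300 kb or more. The median length of a gene around a member was 118.8 kb, and the median distance from a member to the nearest gene end was 26.6 kb. Most genes with a member had only 1 (755 of 1049), while 294 had at least 2 and 108 at least 3.

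**Figure D2:**
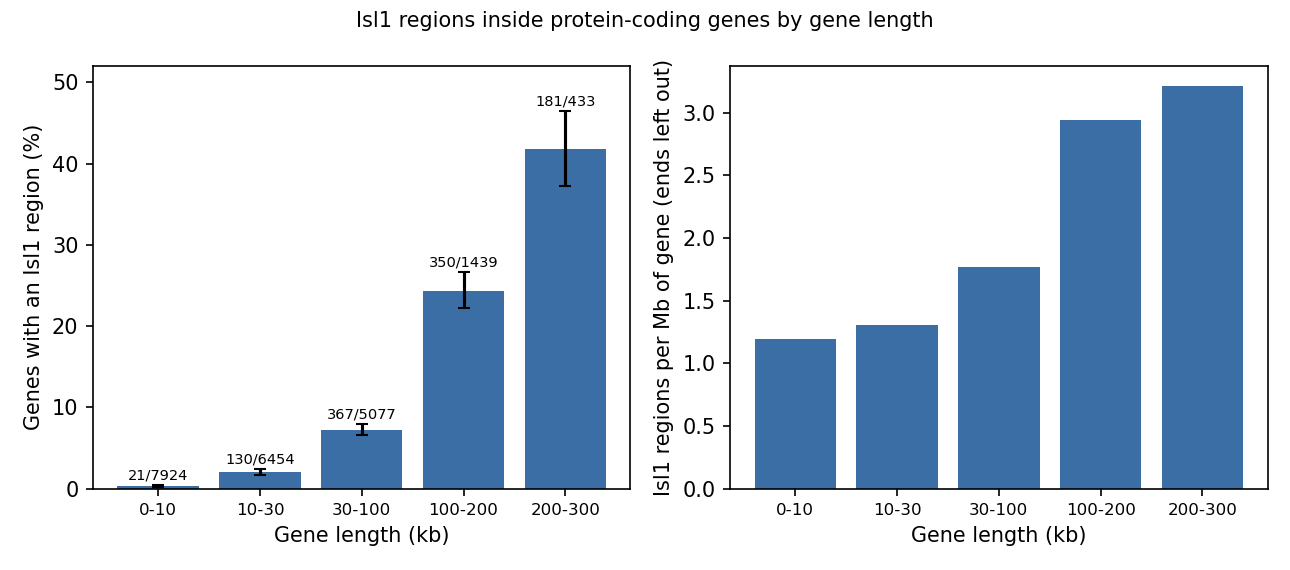
Left, share of protein-coding genes that hold at least 1 member by gene length in kb, with Wilson 95% intervals (counting error only) and the counts above each bar. Right, members per Mb of gene sequence more than 1 kb from every gene end, by the length of the longest containing gene, from 1.19 under 10 kb to 3.21 at 200 to 300 kb.

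Some members, and many of the strongest, were at a start inside the gene. RefSeq start entries were matched for the containing gene of 1167 members, and 95 of those (8.14%, 6.71 to 9.85%) had their centre within 500 bp of a start. For regions inside genes of 300 kb or more the share was 15 of 810 (1.85%, 1.13 to 3.03%), and over genes of any length it was 5.56%. Of the 95 members, 81 were at a start of the containing gene itself and 14 at the start of a lncRNA gene. The centre lay upstream of the start in 77 of the 95, and the median position was 67 bp upstream. Seen from the starts, 126 of 5840 starts inside shorter genes (2.16%) had a shared region within 500 bp. The share was 103 of 3583 protein-coding starts (2.87%) and 23 of 2257 lncRNA starts (1.02%). Within 1 kb of a gene end it was 4.49% of 18848 starts. Inside genes of 300 kb or more it was 21 of 831 starts (2.53%, 1.66 to 3.83%), and 13 of 298 protein-coding starts (4.36%). Counted per start, the share with a region was thus not higher in shorter genes than in longer ones.

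Members at starts had higher scores in both replicates. Their medians were 232 in replicate 1 and 186 in replicate 2, against 93 and 117 for the 1072 members farther away. The median of the lower score was 166 at starts and 83 farther away. Inside genes of 300 kb or more it was 171 for 15 regions at starts and 82 farther away. The difference was thus not particular to shorter genes. Ranked by the lower of their scores, 30 of 116 members with a start entry were at a start among the highest 150, and 4 of 119 among the lowest 150. The share also differed with the distance to the gene end: 22 of 66 members 1 to 2 kb from an end were at a start, 24 of 103 at 2 to 5 kb, 7 of 118 at 5 to 10 kb, 17 of 340 at 10 to 30 kb, 25 of 492 at 30 to 100 kb and 0 of 48 beyond 100 kb, which allows a share of up to 6.25%. With gene ends held off by 5 kb in place of 1 kb, 49 members (4.91%) were at a start.

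Away from these starts, similar numbers of members lay nearer the 5′ and nearer the 3′ end of their genes. Of the 1167 members with a known gene strand, 610 (52.3%, 49.4 to 55.1%) lay nearer the 5′ end and 557 nearer the 3′ end. Without the members at starts the counts were 535 and 537. Close to the ends the sides were less even: 122 members lay within 5 kb of the 5′ end and 48 within 5 kb of the 3′ end, and 77 and 46 of these were away from starts. With each gene divided into 10 equal parts, the part at the 3′ end held 59 members, and the others held 101 to 136. With the 5 kb margin the share nearer the 5′ end was 48.9%, so its small lead did not hold there. Exons and introns were not told apart here.

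**Figure D3:**
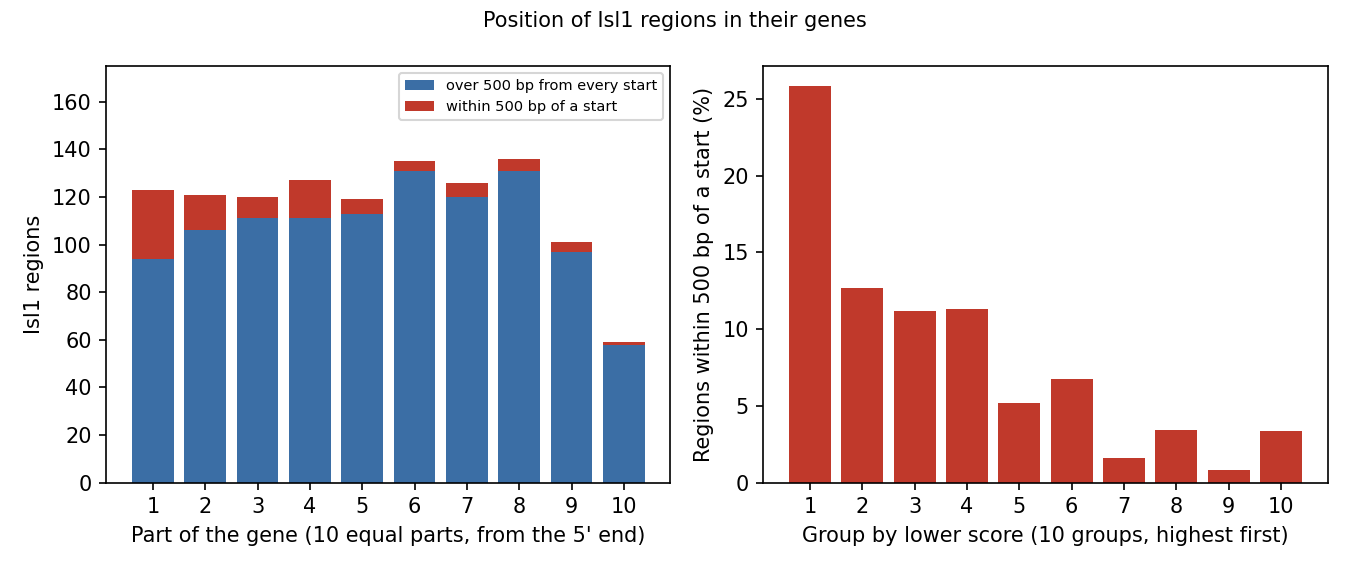
Left, number of members in 10 equal parts of the containing gene from its 5′ end, with members within 500 bp of a RefSeq start in red, for the 1167 members whose gene strand is known. Right, share of members within 500 bp of a start in 10 groups of like size ranked by the lower score, highest first, from 30 of 116 in the highest group to 4 of 119 in the lowest.

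The 10 members with the highest lower score lay in genes of varied function. All 10 were fairly near a gene end: their centres lay 1.092 to 6.389 kb from the nearest one, where the members' median was 26.6 kb. The highest was in Rpl22, a ribosomal protein gene of 9.647 kb, with scores of 1510 and 1638 in replicates 1 and 2. Its centre was 10 bp upstream of a Rpl22 start, and the lncRNA gene 9430083M05Rik starts from the same stretch on the other strand. Baz2a, which encodes a subunit of a nucleolar chromatin remodeller, had scores of 1300 and 1461 at chr10:128096649-128096892, and no start was within 500 bp. Arid1a, a subunit gene of the SWI/SNF remodeller, had scores of 1248 and 1304, with the centre 461 bp upstream of a start. The histone demethylase gene Kdm6b had 1070 and 1053 at chr11:69417499-69417734. These values were far above the members' medians in both replicates.

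The other 6 of the 10 lay in Tjp3, Srcin1, Gipc1, Septin11, Rbms2 and Hyal2. Tjp3, a tight junction scaffold gene, had scores of 1287 and 1150 at chr10:81285797-81286113. Srcin1, which encodes an inhibitor of Src kinase, had 1124 and 1128, and Gipc1, a PDZ adaptor gene, had 1030 and 1049. Septin11 (a septin GTPase) had 1205 and 964, 143 bp upstream of a start. Rbms2 (an RNA-binding protein) had 1063 and 958, 139 bp upstream of a start, and Hyal2 (a hyaluronidase) had 1105 and 941, 198 bp upstream of a start. In 5 of these 10 regions the centre was thus within 500 bp of a start, among the 7 whose gene had a start entry. Each of the 10 had scores of at least 941 in both replicates.

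Members at starts were also found in genes of developmental pathways and in a further remodeller gene. Rbpj, the DNA-binding effector of Notch signalling, had a region 40 bp upstream of a start with scores of 709 and 728, and another less than 1 kb away, at chr5:53589396-53589567, with 636 and 641. Axin2, a feedback inhibitor of Wnt signalling, had scores of 338 and 253 in a region centred 195 bp downstream of a start, 2.716 kb from the 5′ end of the gene. Amotl1, which binds the Hippo effector Yap1, had 275 and 260, 57 bp upstream of a start. Smarcd3, another SWI/SNF subunit gene, had 176 and 196 with its centre 7 bp from a start. The pair of regions in Rbpj had scores of at least 636 in both replicates.

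Arid5b and Phldb2 held the most members, 8 each. Arid5b, a gene of an ARID DNA-binding protein, is 186.833 kb long, and its regions lay 32.4 to 166.187 kb from its 5′ end. None of the 8 had a lower score above 113, the value of the region at chr10:68212007-68212213 (113 and 140). Phldb2 encodes a protein that anchors microtubules at the cell cortex. Of its 8 regions, 7 lay 56.571 to 123.757 kb from the 5′ end, and the strongest, at chr16:45868794-45869429, had scores of 859 and 889. A further region of Phldb2 with scores of 462 and 243 was 156 bp upstream of an internal start, whose sequence is shown above.

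In Kifap3, Rpgrip1l and Slx4ip the members stood close together in a part of the gene. Kifap3, which encodes the accessory subunit of kinesin-2, held 7, and 6 of them lay within 23.156 kb of its 3′ end. The strongest of these, at chr1:163898092-163898632, had scores of 601 and 923. Rpgrip1l, a gene of the ciliary transition zone, held 7, of which 5 lay within 10 kb of its 5′ end, and this end is 0.076 kb from Fto. The strongest, at chr8:91307679-91308330, had 447 and 434. Slx4ip, whose product binds the nuclease scaffold Slx4, held 5, and 4 of these lay 55.592 to 66.091 kb from its 5′ end. The strongest, at chr2:136955781-136956284, had 574 and 565. The other end of Slx4ip is 0.1 kb from Jag1, a Notch ligand gene, as RefSeq gives the genes.

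Further genes held 5 to 7 members. Cpvl, a carboxypeptidase gene, held 7, with no lower score above 104. Nxn, whose product binds the Wnt mediator Dishevelled, held 6, of which 4 lay 56.152 to 61.024 kb from the 5′ end. The corepressor gene Runx1t1 held 6, the strongest with scores of 428 and 518. Dclk1, a microtubule-associated kinase gene, held 6, the strongest with 472 and 250. Genes with 5 members were Bcl2 (an inhibitor of apoptosis), Bbox1 (carnitine synthesis), Sema3c (a secreted semaphorin), the collagen genes Col24a1 and Col8a1, Ldlrad3, Rgs22 and Slx4ip. Within Rgs22 a region at chr15:36041770-36042479 had scores of 918 and 664, and 2 more of its regions lay within 2 kb of it. Across the alternatives for overlap, score, lists and limits, the count ranged from 6 to 12 for Arid5b, 0 to 9 for Phldb2, 3 to 7 for Cpvl and 0 to 8 for Dclk1. The lowest count of 0 came with the 200 kb length limit, since Phldb2 and Dclk1 are longer than that.

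Counted per whole gene length, the densest genes with at least 3 members were Ackr4, Bbox1, Fgf9 and Smarcd3. Ackr4, an atypical chemokine receptor gene that lies within Acad11, held 4 members in 28.962 kb, or 13.8 per 100 kb. Its strongest region, at chr9:104123429-104123873, had scores of 1067 and 883. Bbox1 had 9.85, Fgf9 9.48 and Smarcd3 9.42 per 100 kb. The annexin gene Anxa2 had 7.87 per 100 kb, with its strongest region at 819 and 465, and the prostaglandin F receptor gene Ptgfr had 7.71, with no score above 196.

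**Figure D4:**
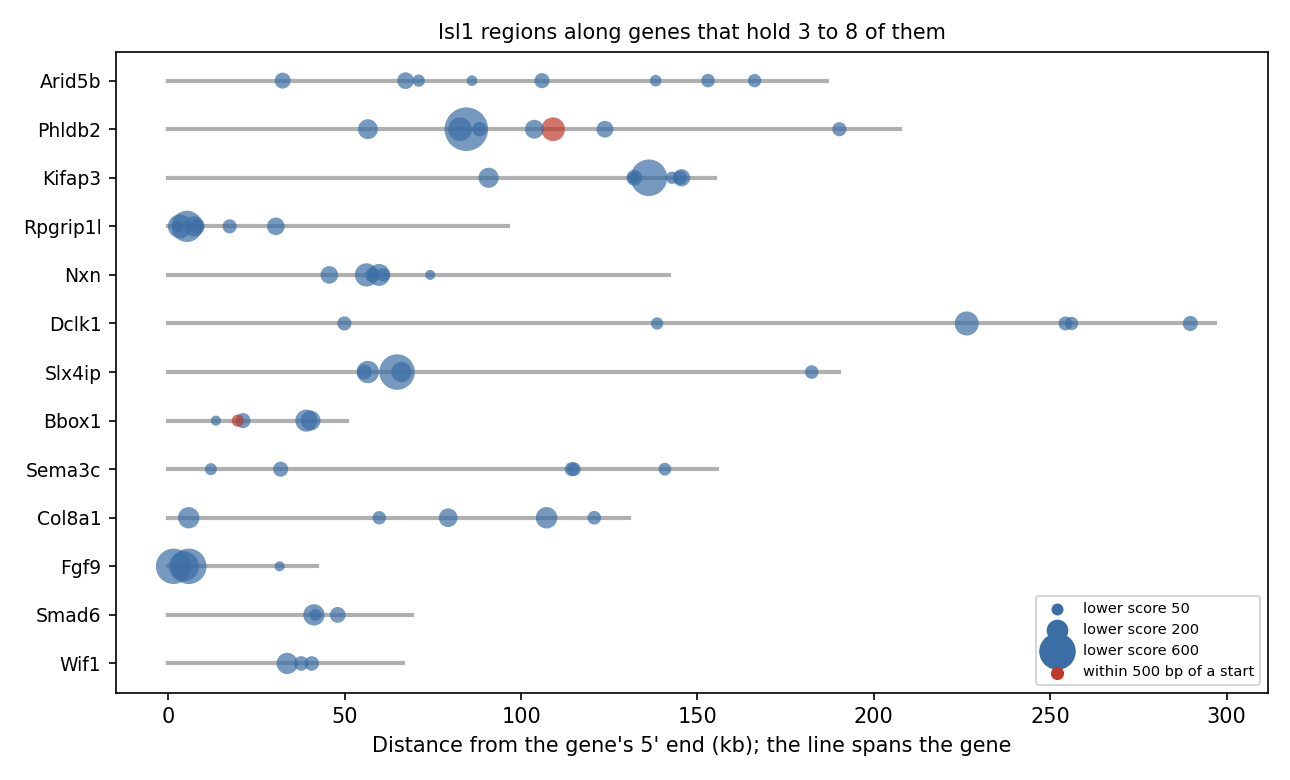
Members along 13 genes that hold 3 to 8 of them, with distance from the 5′ end in kb on the x axis, the grey line spanning the gene, point area growing with the lower score of the replicates and red for regions within 500 bp of a RefSeq start. Members of Kifap3 stand near the 3′ end, those of Rpgrip1l and Fgf9 near the 5′ end, and those of Arid5b along most of the gene.

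Among signalling pathways, the share of genes with a member was above the 4.92% of all genes under 300 kb in every list, but several lists hold long genes. So each count is also set beside the number that genes of the same lengths would give at their rate in the whole table. The lists were chosen with earlier results known, no test was made, and nothing here is particular to a list. Wnt genes had a member at 14 of 62 (22.6%), where lengths alone gave 6.13. Hedgehog genes had one at 6 of 22 (27.3%, lengths 2.47), Bmp genes at 6 of 31 (19.4%, lengths 2.64), Tgf-beta and activin genes at 6 of 20 (30%, lengths 1.75) and Fgf genes at 6 of 26 (23.1%, lengths 1.78). Retinoic acid genes had one at 4 of 17 (23.5%, lengths 1.15), Notch genes at 2 of 18 (11.1%, lengths 1.01), Hippo genes at 6 of 21 (28.6%, lengths 2.19) and sex steroid genes at 3 of 17 (17.6%, lengths 2.75).

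Ligand genes with members included Fgf9, Fgf10, Bmp5 and Tgfb2. Fgf9, a ligand of mesenchymal and epithelial signalling, had 4. Of these, 3 lay 1.479, 4.394 and 5.784 kb from its 5′ end with scores of 947 and 561, 634 and 404, and 565 and 599, and the other, 31.533 kb in, had 31 and 67. The 3 regions near the 5′ end thus had scores of at least 404 in both replicates. Bmp5 had 2, with scores of 138 and 91 at chr9:75845466-75845808 and 179 and 284 at chr9:75870379-75870789. Tgfb2 had 2, with 152 and 204 for the stronger, and Inhba, the gene of an activin subunit, had 1 with 116 and 294. Fgf2 had 2 near its 3′ end, with 158 and 158 for the one at chr3:37401972-37402381. In Fgf10 the single member lay 17.331 kb from the 5′ end.

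Secreted antagonists and receptors made up a further group. Wif1, a secreted Wnt inhibitor, had 3 members 33.695 to 40.642 kb from its 5′ end, with scores of 191 and 202, 128 and 83, and 82 and 83. Bambi, a pseudoreceptor that blocks Bmp and Tgf-beta signalling, had 2 within its 9.394 kb, with 136 and 131, and 106 and 180. Bmper, a secreted modulator of Bmp ligands, had 1 with 282 and 194. Tgfbr3, a coreceptor, had 2 with no score above 90. The hedgehog receptor gene Ptch1 had 2, with 327 and 171 at 10.207 kb from its 5′ end and 36 and 51 at 6.603 kb. Disp1, needed to release hedgehog ligands, had 1 with 179 and 174. The Notch2 receptor gene had 1 with 115 and 189.

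Nuclear and cytoplasmic effectors had members over a wide range of scores. Gli1, an effector and target of hedgehog signalling in 11.698 kb, had 1 of 622 and 583, while Gli3 had 1 of 113 and 333 and Gli2 1 of 73 and 53. Smad6, an inhibitory Smad gene, had 3, with 238 and 194 for the strongest, 41.272 kb from its 5′ end. Smad3 had 1 with 130 and 117. The Tcf genes of the Wnt pathway had regions along their length: Tcf7l1 had 3, of which 2 were within 500 bp of the start of a lncRNA gene, and Tcf7l2 had 2, with 282 and 317 for the one 94.258 kb in. In the Hippo list, Vgll4, a cofactor of Tead factors, had 3 with 445 and 513 for the strongest, and Stk3, a core kinase, had 2 with 275 and 314 for the stronger. Among retinoic acid genes, Aldh1a2, the synthetic enzyme, had 1 of 359 and 429. The receptor gene Rara had 2, with 142 and 90, and 115 and 117, Rxra had 1 with 185 and 174, and Rarg 1 with 42 and 90.

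Sex steroid genes with members included Ncoa1 and Srd5a2. Ncoa1, a receptor coactivator, had 1 with 120 and 213, and Srd5a2, which makes dihydrotestosterone, had 1 with 43 and 32. The lower score of 32 at Srd5a2 was below the members' median lower score of 90, and that of 120 at Ncoa1 above it.

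Transcription factor genes of the tubercle held members at 7 of 49 (14.3%, lengths 3.03), and limb and homeodomain partners at 4 of 22 (18.2%, lengths 1.80). Eya4, a transcriptional coactivator, had 2, with 203 and 439 for the stronger. The nuclear factor I genes Nfix and Nfib had 2 each, with 121 and 166, and 118 and 228, for the stronger ones. Meis2 (138 and 174), Pknox2 (102 and 75), Shox2 (49 and 184) and Lmo4, a LIM-only protein gene (153 and 106), had 1 each. Twist2 had 1 near its 3′ end with 43 and 66. No member of these named genes had a lower score above 203.

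Chromatin regulator genes held 24 members at 12 of 44 genes (27.3%, lengths 5.72), of which 8 were in Arid5b. Smarca2, the ATPase of a SWI/SNF remodeller, had 3, with 290 and 349 for the strongest and 36 and 103 for one within 500 bp of a lncRNA start. Kat6b, a histone acetyltransferase gene, had 3, with 116 and 166 for the strongest, and its neighbour Dupd1, 4.087 kb away, had 3 more with no score above 93. Kdm6b had a second region with 138 and 100.

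Matrix and adhesion genes made up the lists with the highest shares. Cell adhesion genes had a member at 8 of 21 (38.1%, lengths 3.97), mesenchyme and matrix genes at 13 of 40 (32.5%, lengths 3.82) and genes of actin and focal adhesions at 8 of 26 (30.8%, lengths 2.66). Among fibrillar collagen genes, Col5a1 had 2, with 206 and 213, and 137 and 408, and Col5a2 had 2, with 206 and 166, and 69 and 44. Col14a1, a fibril-associated collagen gene, had 2 next to each other, with 83 and 117, and 177 and 269. The basement membrane gene Nid1 had 2 less than 1 kb apart, with 113 and 70, and 61 and 83. Scores in this group were in the range of most members, and the lowest among these 4 genes, in Col5a2, was 44.

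Among adhesion receptors, the integrin gene Itgb8 had the strongest member, with 875 and 452, 1.117 kb from its 3′ end. Itga8, an integrin gene of mesenchyme, had 3, with 159 and 243 for the strongest. The cadherin gene Cdh6 had 2, with 110 and 186 for the stronger, and Fat4, a large protocadherin gene, had 2, with 102 and 75, and 156 and 80. In the actin list, Cald1 (caldesmon) had 2, with 220 and 240 for the one 78 bp upstream of an internal start. Myh10, a non-muscle myosin gene, had 2, with 100 and 154 for the stronger. The Itgb8 region had the highest lower score of these, 452, followed by the Cald1 region with 220.

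Axon guidance and matrix remodelling lists were close to what their lengths gave. Axon guidance genes had a member at 4 of 19 (21.1%, lengths 4.18), led by Sema3c with 5, none of them with a score above 173. Sema3d had 2, with 365 and 355 for the stronger, and Sema6a had 1 with 467 and 522. Matrix remodelling enzymes had one at 3 of 19 (15.8%, lengths 3.22), with 429 and 592 for the stronger of 2 in Adamts9, a secreted metalloprotease gene. Eph and ephrin genes had one at 3 of 17 (17.6%, lengths 1.61), in Efna5 (93 and 109), Ephb3 (102 and 83) and Epha4 (61 and 61).

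The remaining lists, for other cell types and for general functions, had at most 3 genes with a member each. Several of these counts were close to what lengths gave, while the cardiac and ribosomal counts were above it. Genes of epithelium and the urethral plate held a member at 1 of 26 (3.85%, lengths 1.04), in Grhl3, an epidermal transcription factor gene (130 and 83). Endothelial genes had one at 1 of 18 (5.56%, lengths 1.70), blood and immune genes at 1 of 18 (5.56%, lengths 1.26) and skeletal muscle genes at 2 of 20 (10%, lengths 2.14). Neuron and glia genes had one at 2 of 19 (10.5%, lengths 1.31) and motor neuron genes at 1 of 13 (7.69%, lengths 0.935). Gfra1, a receptor gene for a neurotrophic factor, stands in both of these lists with 4 members, the strongest with 587 and 558. Cardiac genes had one at 3 of 17 (17.6%, lengths 1.15), namely Smarcd3, Mef2c and Shox2. Islet and hepatocyte genes had none among 19 each, which allows a share of up to 15.8% (lengths 0.697 and 0.593). Cell cycle genes had one at 1 of 26 (3.85%, lengths 1.17), splicing and RNA-binding genes at 2 of 42 (4.76%, lengths 2.22) and ribosomal protein genes, which are short, at 2 of 30 (6.67%, lengths 0.0816). Both ribosomal members, in Rpl22 and Rpl19 (157 and 80), were within 500 bp of a start. Over all listed genes under 300 kb, 128 of 749 (17.1%) had a member, where lengths alone gave 65.3. Across the alternatives the Wnt count ranged from 11 to 18, the mesenchyme and matrix count from 10 to 14 and the cell adhesion count from 7 to 11.

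**Figure D5:**
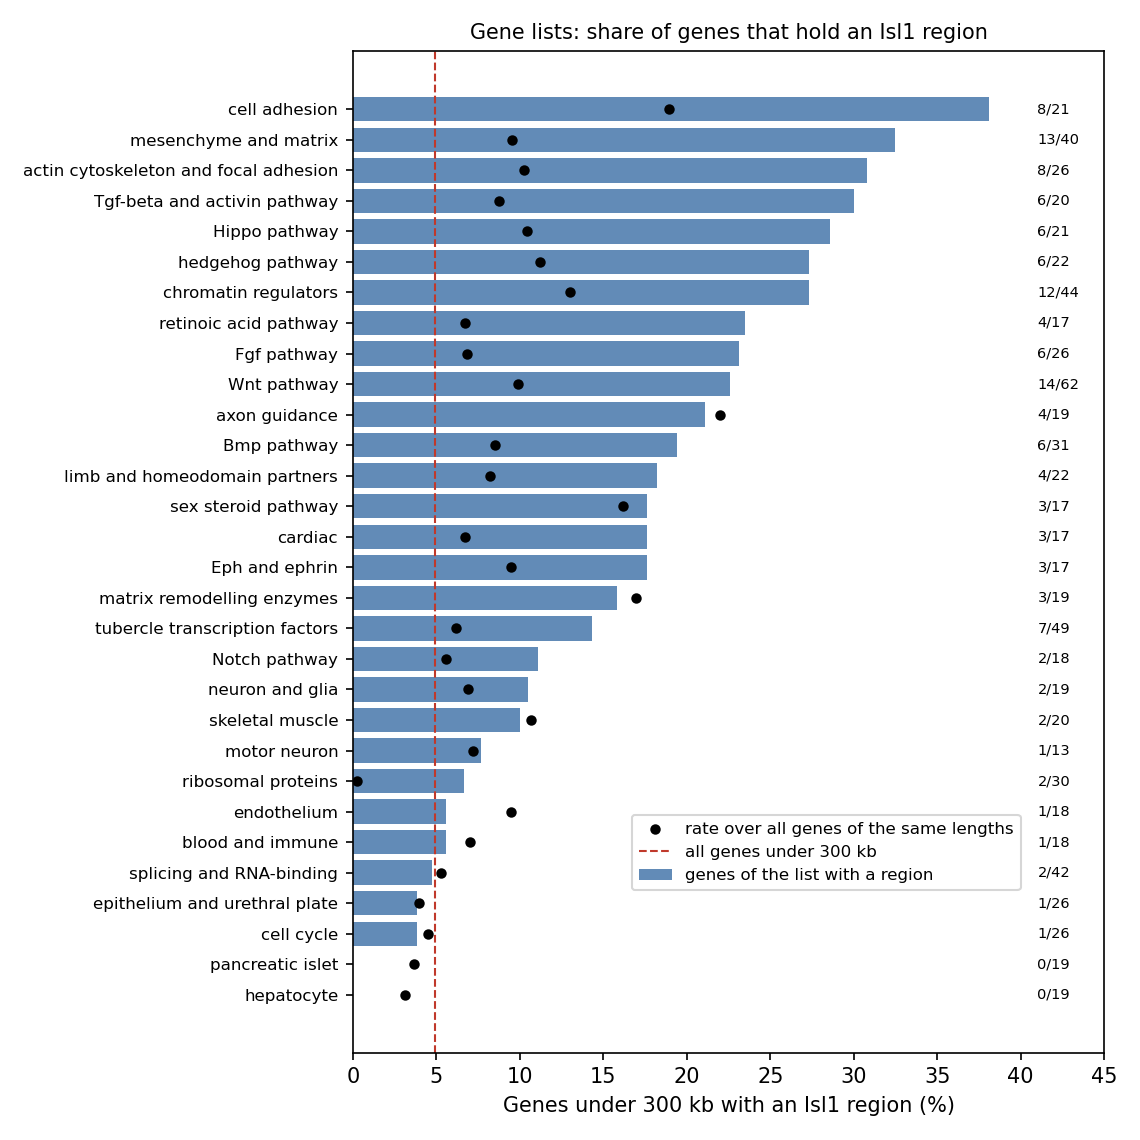
Share of the genes under 300 kb in each list that hold at least 1 member (bars, with counts at the right), beside the share that genes of the same lengths have over the whole gene table (black points) and the 4.92% of all genes under 300 kb (dashed line). Cell adhesion stands highest with 8 of 21, and islet and hepatocyte genes have none of 19.

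The rule's limits passed between regions such as these. The members nearest to the 1 kb limit, in Luc7l2, Rasa3 and Stk35, had centres 1009, 1010 and 1011 bp from a gene end and scores of 199 and 91, 203 and 67, and 260 and 157. Just outside it, regions in Trp53bp1, 1700034E13Rik and Dcaf11 at 999, 998 and 980 bp had 260 and 114, 21 and 90, and 110 and 139. At the length limit, Akap13 (299.084 kb) held 3 members with scores of 405 and 453, 47 and 195, and 146 and 94. Zfp423, at 300.244 kb just over the limit, held regions of 156 and 118, 137 and 247, and 69 and 63.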

How the data were processed

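Peak lists of 2 Isl1 ChIP samples from E14.5 genital tubercles were used. Sample titles gave the group and the replicate number. Per the submitters' processing notes, the tools were Trimmomatic 0.35, Bowtie2 2.2.6, MACS2 2.1.0.20150731 and bedtools, with build mm10. How these were set, and how the input entered, is not stated there. Each line of the lists the authors deposited holds a position and a whole-number score, and the lowest score was 20 in both. The read depth is unknown, so precision is known only as counting error.

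From these, peaks overlapping by at least 1 bp were joined and placed on RefSeq genes of GRCm38.p6, which have mm10 coordinates, with Python 3.11.15, pandas 2.3.3 and scipy 1.17.1. The gene table gives no exons or strand. Strand and start sites came from RefSeq promoter windows, which were matched for 17491 of 21883 protein-coding genes (79.9%). Start and strand were not known for 337 members, among them all 73 on chromosome 18. Exon and intron classes, and motif searches around peak centres, which had been planned, were not run, and motifs were counted in those windows instead.

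The members and the gene lists were chosen with earlier results of these data known. The 30 lists hold 789 genes, of which 1 matched no gene. Length rates used 20 bins of gene length. Named genes were the 15 with most members, those around the 10 members of highest lower score, the 10 densest with at least 3 members, the leading 2 to 4 of each list and 16 chosen beforehand for their place in the earlier results. Results for 3 of the genes so named are not reported here. Sequences of Por, Sgms1, Sash1 and Phldb2, and the genes Acad11, Rasa3 and Stk35, were chosen after their values were seen. No test was run, since regions are not replicates. Wilson 95% intervals and the limit for a count of 0 (3 counts of the total) cover counting error only. Alternatives changed the overlap, the score minimum, the replicates used, the centre, the margin, the length limit and the start distance. Joining and classification were tested on simulated peaks.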

Additional observations from a re-analysis of the deposited data

How the results depend on the processing

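Of 124 recomputed main values, 96 stayed within their counting error or, for counts, within 1.5 times the value reported. With reciprocal overlap of 50%, median scores were 110 and 129, density 1.98 per Mb and the median lower score away from starts 90. With a score of at least 50 they were 119, 141, 1.84 and 96. With a single list, the number of regions ranged from 2014 to 2295, density from 2.99 to 3.41 per Mb, the median lower score away from starts from 82 to 91 and the count within 10 kb of the 3′ end from 151 to 181. The median was 85 for replicate 1 alone and 91 for replicate 2 alone.

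With a 5 kb margin, density was 2.37 per Mb, the share of shared regions 18.9%, and 49 members (4.91%) were at starts. The share nearer the 5′ end was 48.9%, and 64 and 49 members lay within 10 kb of the 5′ and 3′ ends, where 5 kb of each stretch is then left out. A length limit of 200 kb gave 2.06 per Mb and 17.2% of shared regions, and one of 500 kb gave 2.48 per Mb, 29.0% and 6.58% at starts. Within 1000 bp of a start, a distance chosen after seeing the data, 9.85% were at starts. Apart from those named, the causes were not tested. Of the list counts 25 of 240 moved beyond 1.5 times, and of the counts in named genes 99 of 872.

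No paired analysis was possible because only ChIP samples had peak lists, and the input with matching numbers was not analysed here. Motif windows of 100 and 300 bp around centres, and exon and intron shares, were not run. Depth is unknown, and a site under the authors' threshold is not shown to be unbound.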

Other observations

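Members were found on every autosome and the X chromosome. Their share of the shared regions on a chromosome ranged from 16.1% on chromosome 4 (67 of 415) to 29.5% on chromosome 15 (81 of 275). On the X chromosome it was 19.6% (21 of 107). Of the members, 88 also lay inside a lncRNA gene, and 16 lay inside more than 1 protein-coding gene, such as the 4 regions in both Ackr4 and Acad11. A single member overlapped a miRNA hairpin, that of Mir1894 inside Ppp1r10, a gene of a nuclear phosphatase regulator, with scores of 104 and 144.

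Some members had another Isl1 region nearby. The median distance to the nearest other shared region of any class was 50.8 kb, and 347 members (23.1%) had another region within 10 kb. The same share is not given here for the other shared regions, so it is not known whether members differ in this. Among named genes the replicates differed most at a region in Cpvl, with scores of 21 and 144, and at regions in Rpgrip1l (39 and 239), Bbox1 (31 and 185) and Col24a1 (21 and 127). In Bcl2 a region had 166 and 27, the reverse order. These regions were picked after their values were seen, and no cause was tested.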
